A study of Sus scrofa with 30 samples.

Results

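Genes of endoplasmic reticulum (ER) protein folding and early secretory transport were followed in sow mammary gland across 5 stages of a lactation cycle. The list held 55 genes chosen by function, with earlier results of these data known. Of these, 54 had a transcript among the 26012 features tested, which were 14951 reference genes and 11061 loci assembled by the authors. SRP72 was not analysed here. Tissue came from multiparous Danish Landrace × Yorkshire half-sibling sows and was sampled on day 70 of gestation (mid-gestation, MG), day 110 of gestation (late gestation, LG), day 2 of lactation (early lactation, EL), day 10 of lactation (peak lactation, PL) and day 2 after weaning (early involution, W2), with 6 samples per stage and no treatment beyond the stage. In each stage 3 samples were near-identical to each other, with median relative differences of at most 1.80 to 1.85%, and their mean differed from that of the remaining 3 by a median of 0.689 to 0.741%. Those near-copies were not counted, so n = 3 per stage throughout. The sample titles were followed for the stages, although the genotype field of the records gives mid-gestation for the samples titled EL and early lactation for those titled MG. Comparisons of PL with LG, of W2 with PL and of PL with the other 4 stages as 1 group do not depend on that conflict.

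A secreted protein enters the ER while it is being made: the signal recognition particle (SRP) brings the ribosome to the SEC61 channel, the signal peptidase removes the leader, and the oligosaccharyltransferase attaches glycans. Chaperones such as HSPA5 (BiP) hold the chain while it folds and disulfide isomerases join its cysteines, and an unfolded protein load is sensed by ERN1, EIF2AK3 and ATF6, which drive the unfolded protein response. COPII vesicles then carry the cargo towards the Golgi and COPI vesicles return escaped ER residents. The secretory epithelium of the lactating gland is among the tissues known for heavy traffic through this route, because caseins and whey proteins leave the cell by it.

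Levels are the deposited values, normalized for transcript length and sequencing depth and summed over the reference transcripts of a gene, and are called units here. A feature was called when its adjusted p in limma, after Benjamini-Hochberg adjustment over all 26012 features, was below 0.05. The values are shares of a total, and that bears on every comparison with PL. The 7 milk protein genes took 10.5 to 25.5% of the total in the 12 counted samples of MG, LG, EL and W2, and 40.8%, 24.9% and 22.6% in PL replicates 2, 3 and 6. PL replicate 2 stood apart, with a scaling factor of 0.566 by median ratio against 0.836 to 1.28 in the other 14 samples. Results were therefore also computed after median ratio scaling over 3521 features, after scaling each sample to its median member of the pathway list (an alternative chosen after seeing the data), and without PL replicate 2.

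The tissue was checked by marker genes. Luminal epithelial markers, 6 of 6 found and including KRT8, KRT18, KRT19 and EPCAM, summed to 837 units in PL replicate 2 and to 1315 to 1992 units in the other 14 samples. Fibroblast markers, 5 of 5 found, summed to 1390 to 2617 units in W2, to 1530 to 2325 in MG, to 1135 to 2141 in LG, to 845 to 1287 in EL and to 468 to 1081 in PL. Of the 6 adipocyte markers, ADIPOQ and PLIN1 had no row, and the other 4 summed to 310 to 876 units in PL against 581 to 1396 in the remaining stages. Plasma cell markers, which mark another cell type with a large ER, summed to 731 to 911 units in PL and to 433 to 2923 in the other stages, where they were highest in MG. Leukocyte markers, 4 of 5 found, summed to 24.8 to 34.1 units in PL and 32.8 to 65.0 elsewhere, and endothelial markers, 3 of 4 found, to 68.9 to 101 units in PL and 90.1 to 166 elsewhere. Myoepithelial markers, 4 of 5 found, summed to 755, 1679 and 1885 units in PL replicates 2, 3 and 6. They summed to 863 to 1045 units in EL and to 1150.5 to 1663 units in MG, LG and W2. KRT14, CDH5 and CD68 had no row either. In these bulk samples fewer cells of a type and less RNA per cell cannot be told apart, and the part of cell composition in the results below was not tested.

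**Figure D1:**
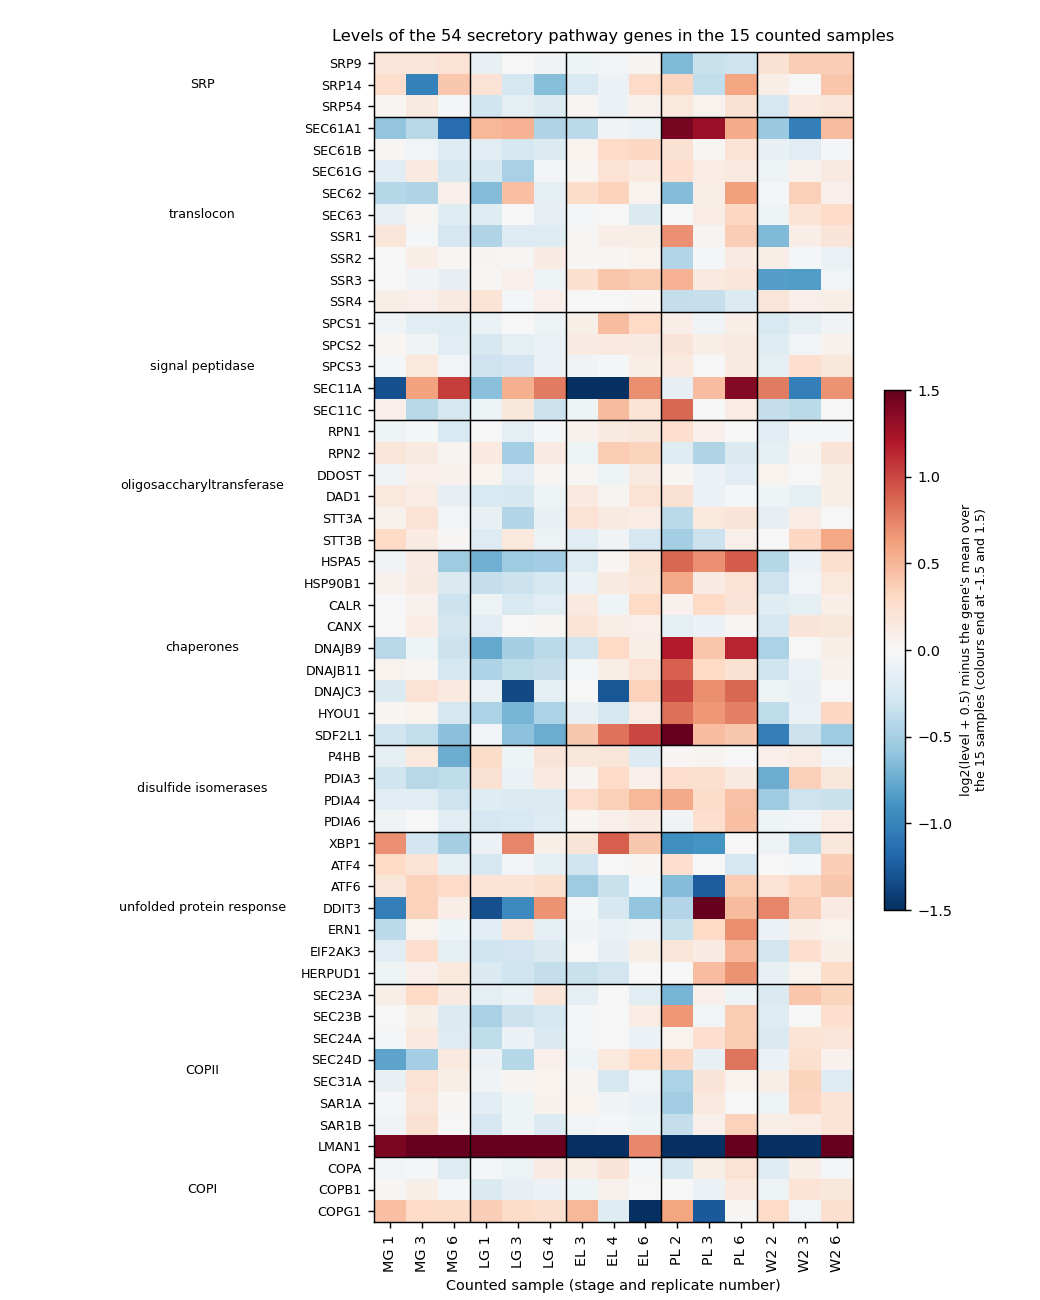
Each row is 1 of the 54 genes and each column 1 of the 15 counted samples. Colour gives log2(level + 0.5) minus the mean of the gene over the 15 samples, and horizontal lines separate role groups. HSPA5, DNAJB9, DNAJB11, DNAJC3 and HYOU1 are redder in the 3 PL columns than in the other 12, SRP9 and SSR4 are bluest there, and XBP1 is blue in 2 of the 3.

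The pathway genes covered a wide range of levels. Their mean levels over the 15 samples ran from 5.12 units for DDIT3 to 772 units for XBP1, which ranked 147 of all features, followed by SSR4 (592 units, rank 165), SSR2 (437 units, rank 213) and CALR (428 units, rank 218). The 54 genes together took 0.557 to 0.732% of the total in all 15 samples. An F test over the 5 stages in limma called 10 of the 54 genes, or 18.5%, beside 18.3% of all features tested. The same test called 22.1% of the reference genes and 32.85% of the 7857 features with a mean of at least 10 units. The share of the list was therefore near that of all features and below that of features at higher levels. At an unadjusted p below 0.05 the F test marked 17 of the 54 genes, beside 8795 of the 26012 features. The 10 were the chaperones and co-chaperones HSPA5 (adjusted p = 0.0046), HYOU1 (0.0054), DNAJB9 (0.01), SDF2L1 (0.014) and DNAJB11 (0.038), the disulfide isomerase PDIA4 (0.0017), the channel subunit SEC61A1 (0.033), the translocon-associated subunits SSR3 (0.026) and SSR4 (0.027), and SRP9 (0.011). The highest stage mean fell in PL for 26 of the 54 genes, in W2 for 12 and in EL for 11. The lowest fell in LG for 26 and in PL for 11. The same counts over all features are not given here, so these have no background beside them.

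The question of the PL comparison is which part of the secretory machinery differed at the stage that the authors name peak lactation. No measure of milk output was used here. With PL set against the mean of the other 4 stages, limma called 11 pathway genes higher, beside 3.03% of all features, and 2 lower, beside 27.3% of all features. That is 20.4% and 3.70% of the list. The median change of the list was 0.18 on the log2 scale, that of all features -0.47, and that of the 7857 features with a mean of at least 10 units -0.60. The PL samples lay above all 12 other samples for 6 of the 54 genes, beside 1.10% of all features, and below them for 2, beside 11.3%. By role, 7 of 9 chaperones were called higher, with a median change of 0.93, and so were 1 of 9 translocon genes, 1 of 4 disulfide isomerases, 1 of 7 genes of the unfolded protein response and 1 of 8 COPII genes. SSR4 and SRP9 were called lower, and no gene of the signal peptidase (5), the oligosaccharyltransferase (6) or the COPI coat (3) was called.

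The number of calls depended on the scale. After median ratio scaling, 40 pathway genes were called higher and 0 lower, beside 7.41% and 8.96% of all features, with a median change of 0.74 for the list and -0.07 for all features. The 14 not called on that scale were SRP9, SRP14, SEC62, SSR4, SEC11A, RPN2, STT3B, XBP1, ATF4, ATF6, DDIT3, SEC23A, LMAN1 and COPG1. Quantile normalization gave 36 higher and 0 lower, beside 1923 and 2467 of all features. Leaving out the milk protein genes gave 27 higher and 1 lower, beside 1098 and 4936 of all features. Without PL replicate 2, 9 were called higher (HSPA5, HYOU1, DNAJB9, DNAJB11, PDIA4, PDIA6, SEC61A1, ERN1 and HERPUD1) and 2 lower (SRP9 and SSR4). All features gave 1248 higher and 4312 lower in that fit. Scaled to the median member, which shows only how the genes differed from each other, 7 were called higher and 7 lower. All features gave 713 higher and 9315 lower on that scale. HSPA5, HYOU1, DNAJB9, DNAJC3, SDF2L1, PDIA4 and SEC61A1 were the 7 called higher there, and SRP9, SSR4, RPN2, STT3B, XBP1, ATF6 and SEC23A the 7 called lower.

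**Figure D2:**
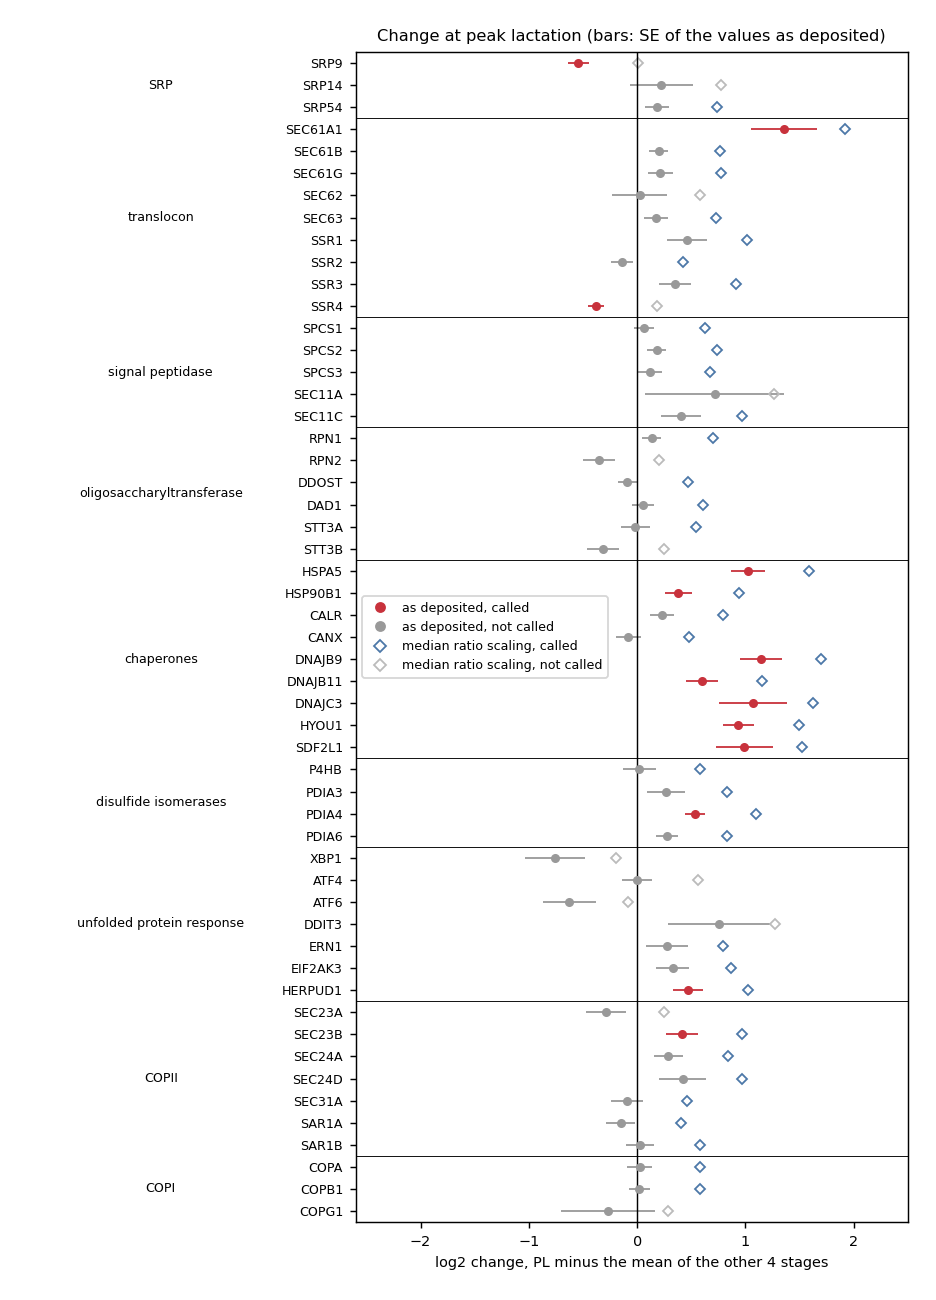
The x axis gives the log2 change between PL and the mean of the other 4 stages, filled circles with SE bars are the values as deposited and open diamonds the values after median ratio scaling. LMAN1, which is listed at 0 in some samples, is left out. The diamonds lie to the right of the circles for every gene shown, and SEC61A1, DNAJB9, DNAJC3, HSPA5, SDF2L1 and HYOU1 lie furthest right under both.

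HSPA5, the main Hsp70 chaperone of the ER lumen, lies at chr1:265930044-265934959 of Sscrofa11.1 (NCBI gene 407060). Its level was 381, 335 and 392 units in PL replicates 2, 3 and 6. It was 201, 227 and 144 units in MG, 126, 145 and 146 units in LG, 183, 214 and 241 units in EL, and 155, 197 and 246 units in W2. No sample of another stage reached the lowest PL sample, and LG was the lowest stage. HSPA5 rose at PL by 1.02 (SE 0.16) on the log2 scale against the other 4 stages (limma, adjusted p = 0.00061, and exact permutation of 3 against 12 samples, two-sided, p = 0.0022, the smallest these sizes allow). The permutation p is not adjusted over features, and at 0.0022, here and below, it restates the lack of overlap with the other 12 samples. The rise of HSPA5 was 1.00 without PL replicate 2, 1.59 after median ratio scaling and 0.88 relative to the median member, and was called under each. Of the pairwise comparisons, HSPA5 was called against MG (0.97), LG (1.41) and EL (0.80), and W2 was lower than PL by -0.91.

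HYOU1, an Hsp110-type exchange factor that reloads HSPA5 with ATP, was also highest in PL and lowest in LG. Its levels were 53.4, 47.2 and 50.7 units in PL, 30.4, 30.9 and 24.8 units in MG, 21.2, 18.2 and 21.2 units in LG, 27.5, 25.0 and 32.3 units in EL, and 22.8, 27.9 and 37.2 units in W2. HYOU1 rose at PL by 0.93 (SE 0.15, limma, adjusted p = 0.00073, exact permutation p = 0.0022), and it was 1 of 2 pathway genes called between PL and EL (0.83, adjusted p = 0.025). The sum covers 14 transcripts, of which the highest holds 19.6%. That transcript is listed at 0 in PL replicate 3 and at 18.3 and 21.9 units in PL replicates 2 and 6. In W2 it stood at 9.57, 4.49 and 8.65 units. Taken alone it gave a change of 0.38 between PL and W2, in the opposite direction to the sum (-0.80). That direction rested on the level listed at 0, which may be a failed estimate. The gene lies at chr9:46264929-46277056.

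Co-chaperones of HSPA5 were called higher too. The 3 in this paragraph, with SDF2L1, SEC61A1, SEC61B and CANX, fell outside the rule for giving values by sample and were added after their values were seen. DNAJB9, an ER-resident J-domain protein, stood at 46.9, 27.3 and 45.3 units in PL against 11.7 to 25.1 units in the other 12 samples, a rise of 1.15 (SE 0.19, limma, adjusted p = 0.0012). DNAJB11, another J-domain partner, stood at 75.9, 50.1 and 47.5 units against 29.3 to 47.2 units (0.60, SE 0.15, adjusted p = 0.0093), so that its lowest PL sample was close to the highest EL sample. Without PL replicate 2 the rise was 0.39 (adjusted p = 0.033), and relative to the median member DNAJB11 was not called (0.45, adjusted p = 0.058). DNAJC3, a J-domain protein that also inhibits the kinase EIF2AK3, stood at 40.2, 31.9 and 36.0 units in PL and at 7.35 to 25.1 units elsewhere (1.07, SE 0.31, adjusted p = 0.022). Its call was lost without PL replicate 2 (0.99, adjusted p = 0.091) and without PL replicate 6, with changes of 0.95 to 1.15 over the 15 fits that left out 1 sample.

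SDF2L1, a component of the HSPA5 co-chaperone complex, had a different course. Its levels were 16.3, 7.61 and 7.26 units in PL and 7.27, 9.88 and 11.3 units in EL, with 3.30 to 4.29 units in MG, 3.01 to 5.21 units in LG and 2.36 to 4.22 units in W2. Both lactation stages were above the other 3 without overlap, and PL overlapped EL. The PL change of 0.99 (SE 0.26, limma, adjusted p = 0.014) rested in part on PL replicate 2, without which it was 0.63 and not called (adjusted p = 0.083).

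HSP90B1 (GRP94), the Hsp90 of the ER, was less clear. Its PL samples stood at 359, 263 and 282 units, and MG reached 265, EL 276 and W2 270.3 units, so the groups overlapped. The change of 0.38 (SE 0.13) was called (limma, adjusted p = 0.039), but leaving out any of 7 single samples ended the call, PL replicates 2 and 6 among them, with changes of 0.25 to 0.47, and relative to the median member it was 0.23 (adjusted p = 0.21). The lectin chaperones CALR and CANX, which hold glycoproteins, did not pass. CALR was at 445, 521 and 487 units in PL with 340.0 to 522 units elsewhere (0.23, adjusted p = 0.13), and CANX was at 127, 131 and 141 units with 115 to 161 units elsewhere (-0.08, adjusted p = 0.63). After median ratio scaling CANX was called higher at 0.48 (adjusted p = 0.014), so its direction depended on the scale.

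**Figure D3:**
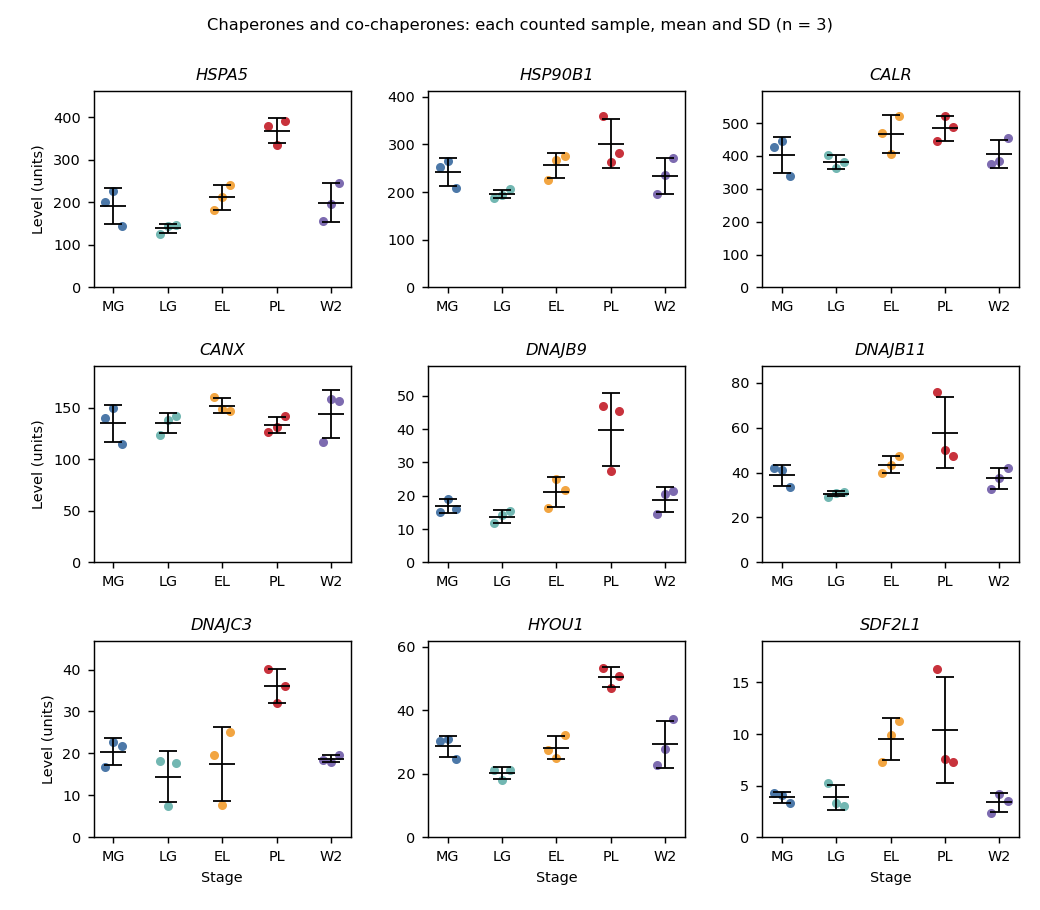
Each panel shows 1 chaperone or co-chaperone. Points are the 3 counted samples of a stage, bars the mean and SD, and the y axis the level in units from 0. In HSPA5, DNAJB9, DNAJB11, DNAJC3 and HYOU1 the 3 PL points lie above every other point, SDF2L1 is also raised in EL, and CANX stays between 115 and 161 units.

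Among the disulfide isomerases, PDIA4 was high in both lactation stages. Its levels were 209, 169 and 191 units in PL and 169, 181 and 198 units in EL, against 125, 125 and 113 units in MG, 124, 122 and 122 units in LG, and 96.8, 113 and 111 units in W2. No EL or PL sample overlapped the 9 samples of the other stages. PDIA4 rose at PL by 0.54 (SE 0.094, limma, adjusted p = 0.0015), and its F test over the 5 stages was the smallest in the list (adjusted p = 0.0017). It was the 1 pathway gene called between W2 and EL (-0.77, adjusted p = 0.021), beside 0.177% of all features called lower there. PDIA6, which also shuffles disulfides and binds the stress sensors, stood at 126, 156 and 179 units in PL with 109.8 to 142 units elsewhere. It missed the threshold against the 4 stages (0.27, adjusted p = 0.062) and passed it against LG (0.44, adjusted p = 0.039), a call kept in 8 of 15 fits that left out 1 sample. Against the 4 stages PDIA6 was called without PL replicate 2 (0.41, adjusted p = 0.0037) and after median ratio scaling (0.83, adjusted p = 5.2e-05). P4HB, the most abundant isomerase at a mean of 221 units, stood at 217 to 225 units in PL and 129.9 to 264 units elsewhere (0.02, adjusted p = 0.93), and PDIA3 was not called either (0.26, adjusted p = 0.29).

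Of the translocon genes, SEC61A1, which forms the channel itself, showed the largest change of any called pathway gene. Its levels were 178, 161 and 97.4 units in PL, 43.9, 49.3 and 29.7 units in MG, 93.9, 94.9 and 48.1 units in LG, 50.0, 63.8 and 61.4 units in EL, and 44.8, 32.2 and 91.2 units in W2. The lowest PL sample cleared the highest LG sample by less than 3 units. SEC61A1 rose at PL by 1.36 (SE 0.30, limma, adjusted p = 0.0058). Its sum turned on how the reads were divided among 3 transcripts: XM_021068233.1 held 69.0 to 137 units in LG replicates 1 and 3, PL replicates 2 and 3 and W2 replicate 6, and at most 0.00866 units in the other 10 samples. NM_001244354.2 alone stood at 39.8, 38.0 and 48.0 units in PL and at 2.22 to 30.2 units elsewhere. The small channel subunits were not called. SEC61B stood at 269, 235 and 267 units in PL and at 192 to 286 units elsewhere (0.20, adjusted p = 0.11), and SEC61G changed by 0.21 (adjusted p = 0.18). SEC62 and SEC63, which serve post-translational import, changed by 0.02 and 0.17 and were not called.

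The translocon-associated protein (TRAP) complex, which helps weak signal sequences to open the channel, had 1 subunit of 4 called at PL against the other 4 stages. SSR4 was lower at PL, at 459, 461 and 508 units against 581 to 678 units in the other 12 samples, without overlap. The change was -0.38 (SE 0.074, limma, adjusted p = 0.0027, exact permutation p = 0.0022). SSR2 stood at 321, 428 and 474 units in PL and 405 to 473 units elsewhere (-0.14, adjusted p = 0.33). SSR3 was highest in lactation, at 180.4, 204 and 199 units in EL and 219.7, 169 and 173 units in PL, and lowest in W2, at 86.0, 85.4 and 148 units, and its PL change of 0.35 was not called (adjusted p = 0.1). SSR1 changed by 0.46 (adjusted p = 0.079). SRP9, a subunit of the signal recognition particle that pauses translation, was 22.6, 28.6 and 29.0 units in PL and 33.3 to 46.8 units elsewhere, a change of -0.54 (SE 0.10, limma, adjusted p = 0.0022, exact permutation p = 0.0022). Both differences depended on the scale. After median ratio scaling SRP9 was at 0.01 and SSR4 at 0.18, neither called, while relative to the median member they were at -0.69 and -0.53 and called. SRP54, the GTPase that binds the signal sequence, stood at 49.5, 46.0 and 52.3 units in PL with 36.0 to 50.6 elsewhere (0.18, adjusted p = 0.24), and SRP14 at 0.22 was not called.

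Of the enzymes that act on the entering chain, none was called at PL against the other 4 stages. In the signal peptidase complex, the catalytic subunit SEC11C stood at 448, 245 and 265 units in PL and 184 to 343 units elsewhere (0.40, adjusted p = 0.13). SPCS1 and SPCS2, its accessory subunits, changed by 0.06 and 0.18 with adjusted p of 0.64 and 0.13 in limma. SEC11A, the other catalytic subunit, ranged from 4.16 to 51.2 units with no order by stage. In the oligosaccharyltransferase, RPN1 stood at 165, 146 and 139 units in PL and 118 to 157 units elsewhere (0.14, adjusted p = 0.27), and DDOST changed by -0.09 (adjusted p = 0.46). RPN2, at 107, 88.1 and 104 units in PL and 85.0 to 158 units elsewhere, changed by -0.36 (adjusted p = 0.091). The catalytic subunits STT3A and STT3B changed by -0.02 and -0.31, neither called. After median ratio scaling SEC11C, SPCS1, SPCS2, SPCS3, RPN1, DDOST, DAD1 and STT3A were called higher at PL, and RPN2, STT3B and SEC11A were not called.

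Of the 7 genes of the unfolded protein response, HERPUD1 was the 1 called, and the sensors ERN1, EIF2AK3 and ATF6 and the transcription factors XBP1, ATF4 and DDIT3 were not. XBP1, whose spliced form drives chaperone genes, was the most abundant pathway gene, and its PL samples stood at 381, 387 and 725 units against 511 to 1346 units elsewhere. That difference of -0.76 (SE 0.28) missed the threshold (limma, adjusted p = 0.055, exact permutation p = 0.026), and its size depended on the scale. Relative to the median member XBP1 was at -0.90 and called (adjusted p = 0.016), while it was at -0.19 after median ratio scaling (adjusted p = 0.71), -0.29 after quantile normalization (0.52), -0.51 without the milk protein genes (0.21) and -0.60 without PL replicate 2 (0.24), and was called under none of these. The table lists 1 of its 2 RefSeq transcripts, so the spliced and unspliced forms could not be compared. ATF6, the membrane-bound sensor that is cut in the Golgi, stood at 11.6, 7.49 and 24.2 units in PL, 12.6 to 18.2 units in EL and 21.1 to 24.5 units in the other 3 stages (-0.63, adjusted p = 0.07). It too was called relative to the median member (-0.77, adjusted p = 0.013) and was near 0 after median ratio scaling (-0.08, adjusted p = 0.85). ATF4, the effector of the EIF2AK3 branch, stood at 210.5, 176 and 148 units in PL and 143 to 227 units elsewhere (0.00, adjusted p = 0.99). DDIT3 (CHOP), a cell death factor of that branch, stood at 3.06, 16.1 and 6.20 units in PL and 1.43 to 7.51 units elsewhere, with 1 PL sample far above the rest (0.76, adjusted p = 0.25). The kinases ERN1 (IRE1) and EIF2AK3 (PERK) changed by 0.28 and 0.33 with adjusted p of 0.32 and 0.13 in limma. Both kinases were called higher after median ratio scaling, ERN1 at 0.80 and EIF2AK3 at 0.87, and ERN1 was also called without PL replicate 2 (0.55, adjusted p = 0.033). HERPUD1, which feeds misfolded proteins to degradation, was called: 52.7, 73.1 and 84.5 units in PL against 41.3 to 64.3 units elsewhere, a rise of 0.47 (SE 0.14, adjusted p = 0.026). PL replicate 2 was within the range of the other stages, and without it the rise was 0.66 (adjusted p = 0.0029), while the call was lost without PL replicate 3 or PL replicate 6, with 0.32 as the lowest value.

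Vesicle coat genes were called in 1 case of 11 as deposited, and this depended on the scale. Of the COPII genes, SEC23B, a subunit of the inner coat, was at 40.0, 24.6 and 33.2 units in PL and at 17.9 to 30.2 units elsewhere (0.42, SE 0.15, limma, adjusted p = 0.049), and that call was lost in 13 of 15 fits that left out 1 sample, with changes of 0.26 to 0.60. SAR1A, the GTPase that starts the coat, was at 66.0, 105 and 95.5 units in PL with 84.2 to 119 units elsewhere (-0.15, adjusted p = 0.43). SEC31A, of the outer coat, changed by -0.09 (adjusted p = 0.68) and SEC24A and SEC24D, which select cargo, by 0.29 and 0.42, neither called. LMAN1, a lectin receptor that ferries glycoproteins, was listed at 0 in EL replicates 3 and 4, PL replicates 2 and 3 and W2 replicates 2 and 3, and at 6.47, 16.9 and 24.7 units in the third sample of those stages, while MG stood at 10.7, 22.1 and 24.8 units and LG at 22.1, 23.8 and 14.2 units. A level listed at 0 may be a failed estimate, and no fold is given. Of the COPI genes, COPA and COPB1 both changed by 0.02, and COPG1 ranged from 8.99 to 58.8 units with no order by stage. After median ratio scaling SEC23B, SEC24A, SEC24D, SEC31A, SAR1A, SAR1B, COPA and COPB1 were called higher at PL. SAR1A was then at 0.41, SEC31A at 0.46, and COPA and COPB1 both at 0.58. SEC23A, LMAN1 and COPG1 were not called on that scale.

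**Figure D4:**
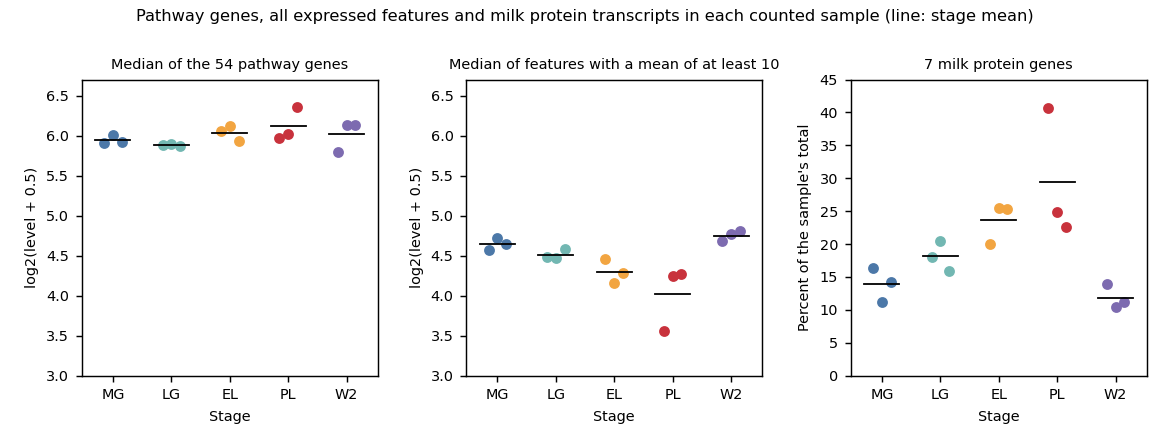
Points are the 15 counted samples and lines stage means. The left and middle panels give median log2(level + 0.5) of the 54 pathway genes and of features with a mean of at least 10 units on one scale, and the right panel the percent of the total taken by 7 milk protein genes. The median pathway gene lies between 5.80 and 6.36 in all samples, while the middle panel drops to 3.56 in PL replicate 2, the sample at 40.8% in the right panel.

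The pairwise comparisons placed the changes along the cycle. Those that contain PL share its 3 samples and are not independent of each other. Between MG and LG no pathway gene was called by limma, beside 0.0115% of all features. At an unadjusted p below 0.05, 3 of the 54 genes passed, beside 1153 of the 26012 features. Between MG and EL none was called, beside 0.0269%, with 6 at an unadjusted p below 0.05, beside 4138 of all features. From LG to EL, the step across farrowing, again none was called beside 0.0154% of all features. An unadjusted p below 0.05 was met by 15 of the 54 genes, beside 1609 of all features. On the same step 42 of the 54 genes had a higher EL mean, with a median change of 0.22 for the list and -0.22 for all features. The 3 EL samples lay above the 3 LG samples without overlap for 25 of 54 genes, beside 2.13% of all features, and below them for 2, beside 16.0%. Those 25 included 8 of 9 chaperones, with SDF2L1 (1.21), HSPA5 (0.61), DNAJB9 (0.59) and DNAJB11 (0.50) among them, 4 of 9 translocon genes and 3 of 5 signal peptidase genes. With 3 against 3 samples an exact permutation test cannot go below 0.10.

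PL differed from LG in 12 genes called higher, beside 1.62% of all features, and 1 called lower, beside 13.1%. The 12 were 7 chaperones, with HSPA5 at 1.41, DNAJB9 at 1.47, DNAJC3 at 1.39, HYOU1 at 1.30, SDF2L1 at 1.26, DNAJB11 at 0.88 and HSP90B1 at 0.61, and PDIA4 (0.62), PDIA6 (0.44), HERPUD1 (0.66), SEC23B (0.69) and SEC61B (0.37). SSR4 was the 1 called lower (-0.40). The call of SEC61B was kept in 2 of 15 fits that left out 1 sample. Without PL replicate 2, 7 were higher and 1 lower, beside 831 and 2388 of all features. Of the 13, 5 (HSPA5, HYOU1, DNAJB9, DNAJB11 and PDIA4) were called in each of the 15 fits that left out 1 sample. After median ratio scaling 29 were higher and 0 lower, beside 3.79% and 5.14% of all features. PL differed from MG in 7 genes called higher, beside 2.23% of all features, and 2 called lower, beside 23.0%. SEC61A1 (1.80), SDF2L1 (1.22), DNAJB9 (1.19), HSPA5 (0.97), HYOU1 (0.81), PDIA4 (0.64) and DNAJB11 (0.54) were higher, and SRP9 (-0.62) and SSR4 (-0.41) lower. After median ratio scaling 40 were higher than in MG and 0 lower, beside 1312 and 1552 of all features. PL differed from EL in 2 genes called higher, HSPA5 and HYOU1, beside 0.777% of all features, and in 0 called lower, beside 3.85%. Without EL replicate 3 or EL replicate 4, 0 were called. At an unadjusted p below 0.05, 10 of the 54 genes passed between PL and EL, beside 4946 of the 26012 features.

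After weaning, the called chaperones were lower than at PL. At W2, 2 days after the litter was removed, limma called 8 pathway genes lower than at PL, beside 2.48% of all features, and 3 higher, beside 30.4%. The median change was -0.15 for the list and 0.68 for all features, and 0.82 for the features with a mean of at least 10 units. W2 lay below PL without overlap for 14 of 54 genes, beside 3.37% of all features, and above it for 3, beside 40.6%. The 8 were SEC61A1 (-1.46), SDF2L1 (-1.42), DNAJB9 (-1.04, SE 0.25), HSPA5 (-0.91, SE 0.20), SSR3 (-0.85, SE 0.19), PDIA4 (-0.82, SE 0.12, adjusted p = 0.00054), HYOU1 (-0.80) and DNAJB11 (-0.59). The call of SEC61A1 was lost without W2 replicate 3 (changes of -1.88 to -1.13) and that of DNAJB11 without PL replicate 2, W2 replicate 2 or W2 replicate 3 (-0.71 to -0.38). SRP9 (0.76), STT3B (0.55) and SSR4 (0.42) were higher, and the call of STT3B was kept in 10 of 15 fits that left out 1 sample, being lost without MG replicate 3, PL replicate 2, PL replicate 3, W2 replicate 3 or W2 replicate 6 (0.41 to 0.71). After median ratio scaling 39 were lower and 0 higher, beside 5.66% and 7.42% of all features. The number of genes with a positive change, called or not, went from 20 as deposited to 2 after median ratio scaling and 3 after quantile normalization, and under median ratio scaling SRP9 (0.02), SSR4 (-0.32) and STT3B (-0.19) were not called. Between W2 and gestation, none of the 54 genes was called by limma against MG, beside 0.0115% of all features, or against LG, beside 0.0346%. At an unadjusted p below 0.05, 1 gene passed against MG, beside 804 of all features, and 5 against LG, beside 1969.

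A further 84 genes of the same route, of 91 listed, gave the wider setting. The F test over the 5 stages called 11 of them, or 13.1%. That is below the 18.3% of all features and the 32.85% of features with a mean of at least 10 units. At PL against the other 4 stages 11 were called higher, or 13.1% beside 3.03% of all features, and 14 lower, or 16.7% beside 27.3%. KDELR3, a receptor that returns escaped ER residents from the Golgi, stood at 56.3, 46.7 and 47.4 units in PL, 23.2, 43.0 and 38.7 units in EL and 13.5 to 21.6 units in the other 3 stages, a rise of 1.28 (SE 0.17, limma, adjusted p = 0.0003). MANF, a secreted cofactor of HSPA5, stood at 120.1, 96.0 and 109 units in PL and 42.3 to 86.9 units elsewhere (0.87, SE 0.16, adjusted p = 0.0018). Neither gene overlapped between PL and the other stages. COPG2, a subunit of the COPI coat, was lower, at 12.1, 22.6 and 31.3 units in PL and 39.2 to 96.7 units elsewhere (-1.75, SE 0.23, adjusted p = 0.00022). ERGIC1, of the ER to Golgi intermediate compartment, was at 93.9, 47.3 and 30.7 units in PL and 84.7 to 181 units elsewhere (-1.40, SE 0.24, adjusted p = 0.0013). EIF2S1, the translation factor that EIF2AK3 phosphorylates, was at 17.8, 21.7 and 21.1 units in PL and 20.9 to 43.0 units elsewhere (-0.52, SE 0.13, adjusted p = 0.012). The changes of these further genes are given as deposited only, and their values on the other scales are not given here. As deposited, the median change of all features at PL was -0.47, and that of EIF2S1 lay near it.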

How the data were processed

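RNA-seq (TruSeq v2, which does not mark strand) of mammary gland tissue gave 30 libraries. The authors trimmed reads with Trimmomatic, aligned them to Sscrofa11.1 with HISAT2, assembled and quantified transcripts with StringTie, and kept transcripts at FPKM of at least 0.5 in a stage. The authors name the deposited unit FPKM, although sample totals lie between 997480 and 1002643, as those of TPM would. Whether RUVs correction is included is not given in the sources used here. The study describes a matrix of raw transcript counts, which was not analysed here, so the depth behind each value is not used and precision rests on the spread between samples, which come from separate sows.

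Values of reference transcripts were summed per gene by RefSeq identifier, leaving each assembled locus as its own feature. Isoforms of a member held only in assembled transcripts are therefore outside its sum, and 22 members overlap another gene. log2(sum + 0.5) was fitted with limma 3.58.1 in R 4.3.3, all 5 stages in 1 fit with trended variance and Benjamini-Hochberg adjustment per comparison. The script was tested on simulated data. Fold changes on this scale understate those of low genes. Members and lists were chosen with earlier results of these data known. Genes named by rule were, in each role group, the 2 highest in mean level and the 2 with the smallest F test p, plus XBP1, ATF4, ATF6, DDIT3, ERN1, EIF2AK3 and HERPUD1, and for the further pathway genes the 5 with the smallest F test p. The edgeR test of the study needs counts, so it was not run on these normalized values.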

Additional observations from a re-analysis of the deposited data

How the results depend on the processing

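Counts of called pathway genes depended on the scale and on which samples were counted. Those without a number for all features beside them have no background to be read against here. In the order F test over the stages, at least 1 of 10 pairwise comparisons, PL against EL, W2 against PL and PL against the other 4 stages, 10, 17, 2, 11 and 13 genes were called as deposited. Median ratio scaling gave 33, 41, 8, 39 and 40, quantile normalization 27, 37, 4, 36 and 36, and leaving out milk protein genes 19, 33, 4, 24 and 28. In PL against EL, all features gave 660 higher and 706 lower by median ratio, 587 and 803 by quantile, and 331 and 1090 without milk protein genes. In W2 against PL they gave 1986 and 1558 by quantile, and 5143 and 889 without milk protein genes. All 6 samples per stage gave 48, 53, 24, 31 and 39, with 19 for LG against MG and 26 for EL against LG, and near-identical samples counted once gave 35, 35, 12, 23 and 29, with 6 for EL against LG, and both settings count copies as replicates. With all 6 samples, all features gave 14285 higher and 2186 lower in W2 against PL, and 2527 and 13071 in PL against the other 4. They gave 2600 and 7513 in PL against EL, 932 and 2755 in LG against MG, and 1056 and 4636 in EL against LG. The highest transcript per gene gave 6, 8, 0, 7 and 8. With 1 factor of unwanted variation the F test called 17 and PL against EL 7, the latter beside 656 higher and 3004 lower of all features. Variance without trend gave 11 in at least 1 comparison and 1 for PL against EL. Compared stages alone gave 7, 0 and 4 for at least 1 comparison, PL against EL and W2 against PL, and an absolute log2 change of at least 2 gave 0 throughout. The further pathway genes, 11 in the F test, came to 18 scaled to the median member, 31 by median ratio, 25 by quantile, 32 with 1 factor, 73 with all 6 samples, 48 with copies counted once, 7 by highest transcript and 5 without trend. With the replicate block the counts were 4, 10, 0 and 7 for the F test, at least 1 comparison, PL against EL and PL against the other 4 stages, and 4 for the further genes. Of 19 same-numbered pairs of samples 7 had a correlation above 0.1, with a range of -0.14 to 0.17. Pairs of different numbers are not given beside them, so these values cannot settle whether the numbers mark a block. Leaving out 1 sample at a time gave 7 to 13 (F test), 11 to 18 (at least 1 comparison), 0 to 3 (PL against EL), 8 to 12 (W2 against PL), 11 to 14 (PL against the other 4) and 7 to 20 (further genes). The lowest count over comparisons came without LG replicate 3 or 4, that of PL against EL without EL replicate 3 or 4, and the highest for the further genes without PL replicate 2. The lowest for the further genes came without LG replicate 1. Of the 13 genes called at PL against the other 4 stages, 8 were called in every such fit, as were 8 of the 11 for W2 against PL. Direction turned for many genes: 20 of 54 were positive in W2 against PL as deposited, 2 by median ratio, 3 by quantile and 8 without milk protein genes, and 39, 51, 50 and 45 in PL against the other 4. Among those called on either scale and named by rule, the W2 against PL values by median ratio and quantile were SSR4 -0.32 and -0.20, SSR2 -0.64 and -0.46, STT3B -0.19 and -0.077, SAR1A -0.47 and -0.36, SEC31A -0.59 and -0.51, COPB1 -0.65 and -0.54, DDOST -0.62 by median ratio, and HYOU1 0.38 by highest transcript. That HYOU1 transcript is listed at 0 in PL replicate 3, on which its direction rested. In PL against the other 4, SRP9 went to 0.012 and DDOST to 0.47 by median ratio, and SSR4 to 0.18 and 0.14, SSR2 to 0.42 and 0.30, SAR1A to 0.41 and 0.31, and SEC31A to 0.46 and 0.38. The cause was not tested.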
